A study of Schizosaccharomyces pombe with 2 samples.

Results

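The genes described here encode nuclear-encoded parts of the mitochondrial respiratory chain and ATP synthase of the fission yeast Schizosaccharomyces pombe, together with factors that assemble them. They were chosen by name: array rows whose name or current symbol is atp, cox, qcr, cor, sdh or nde followed by a number, or rip1, cyc1 or cyt1, leaving out genes of the mitochondrial genome. The rule found 48 of the 4870 gene names on the array, and 47 of them were measured on both arrays, of 4768 measured in all. The remaining row, cox1102, carried a quality mark and did not pass the limit for being above background in any spot. Of 54 nuclear genes with such names in the reference table, 7 had no matching gene spot (atp1, atp19, cox7, cox14, cox20, cox1101 and sdh8) and were not analysed here. Of the 48 rows, 2 came in through the name cor1 alone. Both pair with locus SPAC2C4.05, whose current symbol is cor1, a gene of the cornichon family of cargo receptors and no part of complex III. The row named cor1 was paired through its name only, so its identity is less certain. Both rows are kept in the counts, and for the main values those without them are given.

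Total RNA of a strain labelled pob3 was compared with total RNA of a wild-type strain on 2 arrays carrying spotted open reading frames, both RNAs on each array. Pob3 and Spt16 form FACT, which takes nucleosomes apart and rebuilds them during transcription and replication. On replicate 1 the pob3 RNA carried Cy5 and the wild-type RNA Cy3, and on replicate 2 the dyes were swapped. The labels describe neither the pob3 allele nor other markers, growth or treatment of either strain, and they leave unsaid whether separate cultures were grown for each array. The p-values therefore reflect only how far these arrays differ from each other, and that difference may be technical.

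In the respiratory chain, electrons pass from NADH and succinate through ubiquinone, complex III and cytochrome c to complex IV, which reduces oxygen, and complexes III and IV pump protons across the inner membrane. ATP synthase uses the returning protons to make ATP. Fission yeast has no proton-pumping complex I, and single-subunit NADH dehydrogenases pass electrons to ubiquinone instead. Complexes III and IV and ATP synthase mix subunits encoded in the nucleus with subunits encoded in the mitochondrial genome, while complex II is wholly nuclear.

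The nuclear genes of this group had log2 ratios of pob3 over wild type centred near 0. Their median was 0.04, with 0.16 on replicate 1 and 0.03 on replicate 2, against 0.01 for all genes, and without the cor1 rows it was 0.03. Of the 47 measured genes, 0 passed an adjusted p of 0.05 in either direction (limma, Benjamini-Hochberg over all genes), where 0.734% of all genes passed higher and 0.168% lower. At an unadjusted p under 0.05 in the same fit, 2 members (qcr7 and cox8) lay higher and 1 (sdh7) lower, beside 4.57% and 3.15% of all genes. A mean over 1.5-fold higher was seen in 3 members (qcr7, cox8 and atp4) and one over 1.5-fold lower in 1 (sdh7), beside 4.43% and 2.64% of all genes. The mean lay between -0.5 and 0.5 for 39 members, or 83.0%, against 88.4% of all genes.

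The arrays agreed little, both within the group and over all genes. Members above 0 on both arrays numbered 17, or 36.2%, against 26.6% of all genes. Below 0 on both were 8, or 17%, against 26% of all genes. A further 13, or 27.7%, lay above 0 on replicate 1 and below 0 on replicate 2, against 22.9% of all genes. The other way lay 9, or 19.1%, against 24.5% of all genes. Across the members, which are not independent replicates, the log2 ratios of the 2 arrays had a Pearson r of -0.008, against 0.160 across all genes. The median SD between the arrays was 0.37 for members and 0.25 for all genes, and 7 members differed by more than 1 between the arrays, a distance that 8.54% of all genes exceeded. The 95% interval of a member's mean reached 0.57 to either side of it in the median. The smallest mean among genes past the threshold was 1.18 in size.

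**Figure D1:**
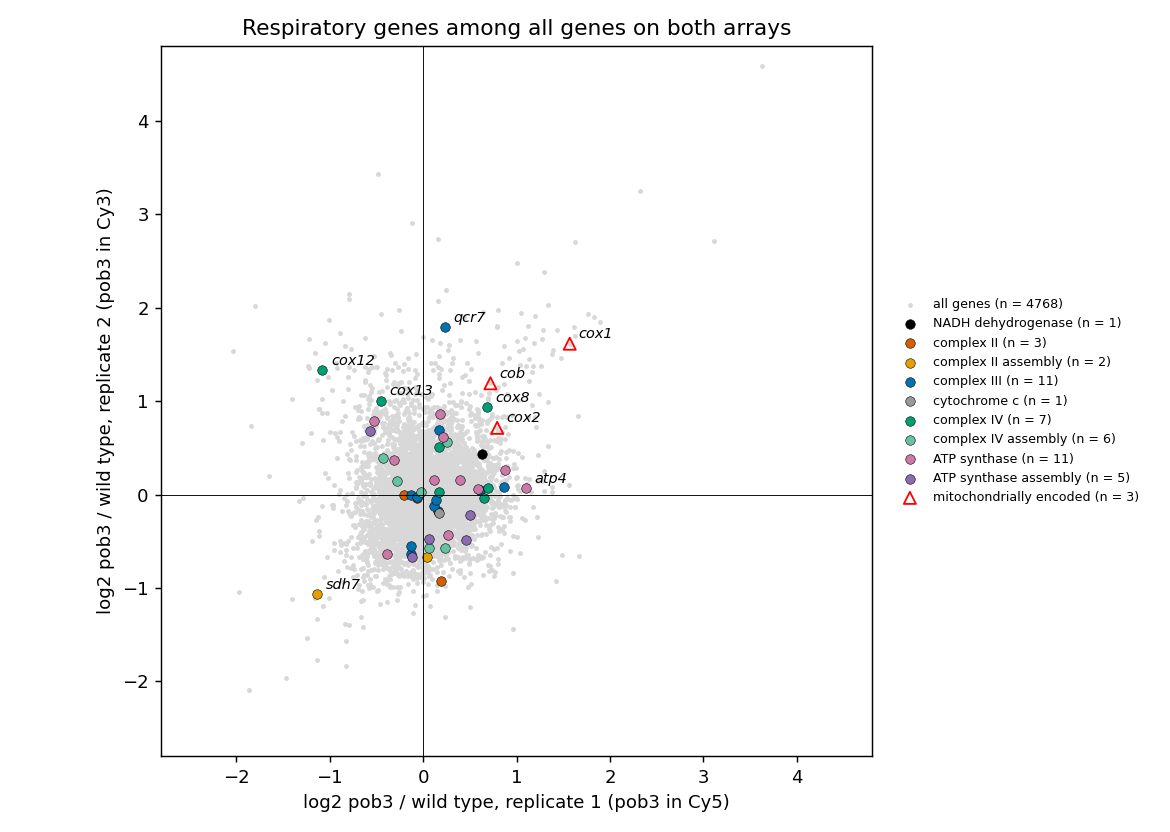
Each point is 1 gene, with its log2 ratio of pob3 over wild type on replicate 1 (horizontal axis) and on replicate 2 (vertical axis). Grey points are all 4768 measured genes, coloured points the 47 nuclear members by complex and open triangles the 3 mitochondrially encoded transcripts. The members scatter around 0 with a Pearson r of -0.008, while sdh7 lies at the lower left and the triangles at the upper right.

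The pob3 transcript itself had log2 ratios of -1.40 on replicate 1 and -1.12 on replicate 2. Its mean of -1.26 ± 0.20 (SD, n = 2 arrays, as for every SD here) passed the threshold in limma at an adjusted p of 0.0329, and missed it under 5 of the alternative settings. Neither the allele nor the part of the gene that its probe reads is given, so how far the value bears on the labels is unknown. All 47 members lay above background in both channels on both arrays.

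Electrons enter the chain from NADH through nde1, the NADH dehydrogenase that in budding yeast faces the intermembrane space. It had log2 ratios of 0.63 and 0.44 on replicates 1 and 2, with a mean of 0.53 ± 0.14 (adjusted p = 0.666). Its pob3 channel was near the limit of the scanner on replicate 1, at 63751 and 62851. Both arrays lay above 0, but with median centring of the spot files in place of loess replicate 1 gave -0.21 and replicate 2 gave 0.59, a mean of 0.19. The gene of the other single-subunit NADH dehydrogenase, ndi1, is outside the naming rule and had 0.08 and 0.91.

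In complex II, succinate dehydrogenase, the lowest value of the whole group belonged to an assembly factor. The gene sdh7 (SPBP23A10.03c) is named after a budding yeast protein that helps to mature the iron-sulphur subunit. Its spots read 6448 and 5761 in the pob3 channel of replicate 1 beside 5192 and 3802 in the wild-type channel, and 3557 and 5328 beside 10300 and 11288 on replicate 2. These intensities are not yet normalised, and the median spot of replicate 1 was far brighter in the pob3 channel, at 6308 and 6253 against 2010.5 and 1978. After normalisation the duplicate spots of sdh7 gave log2 ratios of -1.28 and -0.995 on replicate 1 and of -1.27 and -0.86 on replicate 2. All 4 spots lay below 0.

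The arrays gave -1.14 and -1.07, so that sdh7 was 1 member over 2-fold lower on both arrays, where 0.231% of all genes were, and 0 members were over 2-fold higher on both, against 0.755% of all genes. Its mean was -1.10 ± 0.05, with a 95% interval from -1.65 to -0.55, an unadjusted p of 0.000717 and an adjusted p of 0.0633. It thus missed the threshold in limma over all genes. It passed in 3 alternative settings, with an adjusted p of 0.0131 from the first spots alone, 0.0490 with an intensity trend in the spread and 0.0364 with the submitters' values for replicate 2. Over all settings the adjusted p ranged from 0.0131 to 0.630.

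The other factor of complex II assembly, sdh6, had 0.04 on replicate 1 and -0.66 on replicate 2, with a mean of -0.31 ± 0.50. Of the subunits, the flavoprotein gene sdh1 had 0.19 and -0.92, the iron-sulphur protein gene sdh2 had -0.20 and -0.01, and the membrane anchor gene sdh3 had -0.06 and -0.04. The arrays differed by more than 1 for sdh1 and hardly at all for sdh3. The median of the 3 subunit genes was -0.10, and 0 of their means lay above 0, beside 51.7% of all genes. Once print position medians had been subtracted, 1 of the 3 did so. The signal of sdh1 was 3.61-fold and that of sdh3 3.16-fold brighter on replicate 2 than on replicate 1 over both channels. The gene whose older name is sdh4 has the current symbol tim18, so the rule leaves it out, and it had -0.26 and 1.97.

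**Figure D2:**
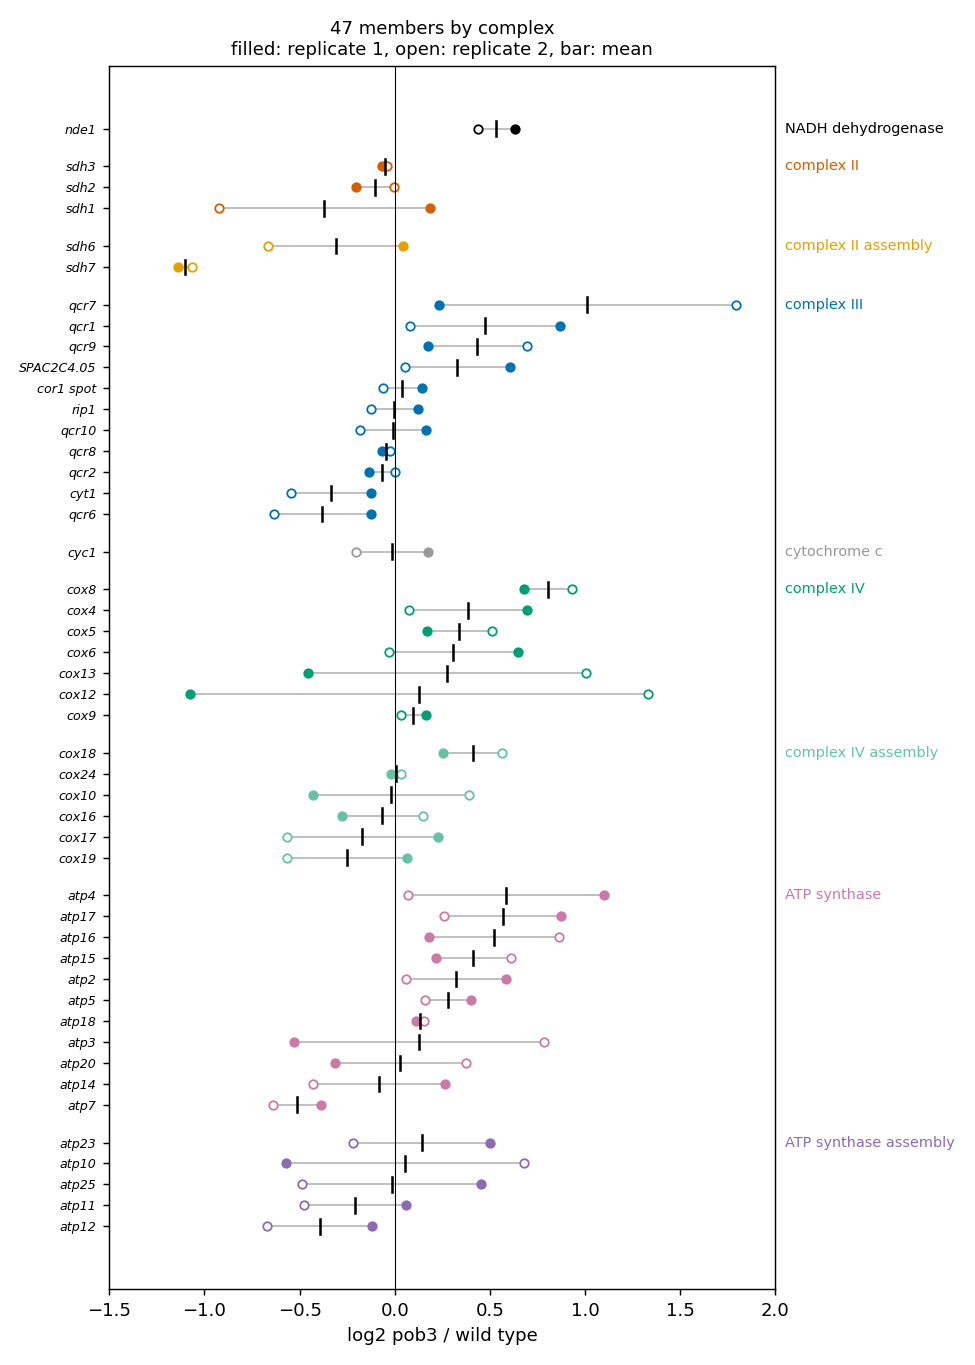
The log2 ratio of pob3 over wild type (horizontal axis) of each of the 47 measured members, grouped by complex. Filled circles are replicate 1, open circles replicate 2 and black bars their mean. The arrays lie on opposite sides of 0 for 13 plus 9 members, and cox12 has the widest gap, from -1.08 to 1.33.

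Complex III, the cytochrome bc1 complex, had a median of -0.003 over 11 rows, and -0.008 over the 9 left without the cor1 rows. On replicate 1 alone the median was 0.14, and with print-tip loess, fitted within each print block, it was 0.18. The small subunit gene qcr7 (SPCC737.02c) had the highest mean of the group, 1.01 ± 1.10 (adjusted p = 0.356). That mean came mostly from replicate 2, where its spots gave 1.82 and 1.77, while on replicate 1 they gave 0.30 and 0.16. All 4 spots lay above 0, and the arrays differed by more than 1.

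The core subunit gene qcr1 had 0.87 on replicate 1 and 0.08 on replicate 2, with a mean of 0.47 ± 0.56 (adjusted p = 0.743). Its signal was 7.68-fold dimmer on replicate 2 than on replicate 1 over both channels, whereas the median member was brighter there, by 0.40 on the log2 scale. Whether this bears on its ratio was not tested. The small subunit gene qcr9 had 0.18 and 0.69, with a mean of 0.43 ± 0.37 (adjusted p = 0.755). Both arrays lay above 0 for qcr1 and qcr9.

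At the other end, qcr6, of another small subunit, had -0.13 and -0.63, and cyt1, which encodes cytochrome c1, had -0.13 and -0.55. Both genes lay below 0 on both arrays. The rest of the complex stayed close to 0: the means of qcr2 (the other core subunit), qcr8, qcr10 and rip1 (the Rieske iron-sulphur protein) ran from -0.07 to -0.003. The row named cor1 had a mean of 0.04 and that named SPAC2C4.05 one of 0.33. The cytochrome c gene cyc1, whose product carries electrons from complex III to complex IV, had 0.18 and -0.20, with the pob3 channel saturated on replicate 1. With median centring replicate 1 gave -0.88 and the mean was -0.46, against -0.01 with loess.

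All 7 measured nuclear subunit genes of complex IV, cytochrome c oxidase, had a mean above 0, where 51.7% of all genes did. Their median was 0.31, with 0.17 on replicate 1 and 0.51 on replicate 2, and 0 of them passed the test. With print-tip loess 5 of the 7 means lay above 0. These subunits surround a core made in mitochondria. On both arrays 4 of the 7 lay above 0 (cox8, cox4, cox5 and cox9), beside 26.6% of all genes. The duplicate spots of cox9 differed in sign, at 0.35 and -0.01 on replicate 1 and -0.03 and 0.09 on replicate 2. The first spot of cox5 on replicate 1 gave -0.02.

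The small subunit gene cox8 (SPAC24C9.16c) had spots at 0.58 and 0.78 on replicate 1 and at 0.83 and 1.03 on replicate 2. Its mean was 0.81 ± 0.18 (adjusted p = 0.342), and all 4 spots lay above 0. Its pob3 channel was near the limit of the scanner on replicate 1 at intensities of 63670.5 and 63956.5. When the spot files were centred on their medians in place of loess, which follows intensity, replicate 1 gave -0.14 and replicate 2 gave 1.06, so that the arrays no longer had the same sign. The gene cox4 had 0.70 and 0.07, and cox9 had 0.17 and 0.03.

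The subunit genes cox12 and cox13 had opposite signs on the arrays. For cox12 replicate 1 gave -1.08 and replicate 2 gave 1.33, a mean of 0.13 ± 1.70 with the largest SD of all members. For cox13 the values were -0.45 and 1.00. Relative to loess, both genes were thus brighter in Cy3 on both arrays. They share a position within their print blocks, row 15 and column 1. Other members share positions too, such as rip1, cyt1 and cox6 at row 17 and column 7. Those genes had 0.12 and -0.13, -0.13 and -0.55, and 0.65 and -0.03. With the median of each print position subtracted, cox12 had -0.94 and 1.18, and cox13 had -0.32 and 0.85. Whether the position bears on these values was not tested.

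Factors that build complex IV had a median of -0.04 over 6 measured genes, and 2 means lay above 0, beside 51.7% of all genes. The highest was cox18, which in budding yeast helps to export part of Cox2 across the inner membrane, with 0.26 and 0.57. The lowest were the copper-handling factor genes cox19, with 0.06 and -0.57, and cox17, with 0.23 and -0.57. For cox24 the arrays gave -0.02 and 0.03. The arrays had opposite signs for 5 of these 6 genes. Of all genes, 22.9% lay above 0 on replicate 1 and below on replicate 2, and 24.5% the other way.

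Of the 11 ATP synthase subunit genes, 9 had a mean above 0, beside 51.7% of all genes, and their median was 0.28, with 0.22 on replicate 1 and 0.16 on replicate 2. On both arrays 7 lay above 0 and 1, atp7, below, beside 26.6% and 26% of all genes. Without atp2, whose ratio is not defined on replicate 2, 8 of 10 means and 6 genes on both arrays lay above 0, and the median was 0.21. No gene of this complex passed the test. The median was 0.13 with median centring, where 8 of the 11 means lay above 0.

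In the peripheral stalk, which holds the catalytic head still, atp4 had 1.10 on replicate 1 and 0.07 on replicate 2, with a mean of 0.59 ± 0.73 (adjusted p = 0.686). On replicate 1 its spots gave 1.32 and 0.88, and the pob3 channel of the first, at 63021, was near the limit of the scanner. Another stalk gene, atp7, had -0.38 and -0.64, with a mean of -0.51 ± 0.18 (adjusted p = 0.688). Genes of a single stalk thus gave the highest and the lowest mean of the enzyme. The stalk genes atp5 and atp14 had means of 0.28 and -0.08, and atp14, with 0.26 and -0.43, was the second lowest of the enzyme.

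In the catalytic head and its rotor, atp16, the delta subunit gene, had 0.18 and 0.87, with a mean of 0.52 ± 0.48 (adjusted p = 0.702). The gene of the epsilon subunit, atp15, had a mean of 0.41. For atp2, the catalytic beta subunit gene, both channels were saturated in both spots of replicate 2, so that array gives no ratio. On replicate 1 its pob3 channel was saturated too, and the value of 0.59 there became -0.31 with median centring, so that no direction can be read. For atp3, the gamma subunit gene, the arrays had opposite signs at -0.53 and 0.78. In the membrane part, atp17 had 0.87 and 0.26, with a mean of 0.57 ± 0.43 (adjusted p = 0.654), and the means of atp18 and atp20 were 0.13 and 0.03.

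The 5 genes for ATP synthase assembly had a median of -0.02, and 2 means lay above 0, beside 51.7% of all genes. The gene atp12, for a chaperone of the catalytic head, had -0.12 and -0.67. The gene atp11, for its partner chaperone, had 0.06 and -0.47. The genes atp10 and atp23, whose budding yeast counterparts act on the mitochondrially made Atp6, had -0.57 and 0.68 and, with the opposite order, 0.50 and -0.22. For atp25 the arrays gave 0.46 and -0.49. The arrays had opposite signs for 4 of the 5 genes, beside the 22.9% and 24.5% of all genes with either order of signs.

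Set by role, 22 of the 34 rows classed as subunits and 4 of the 13 assembly factor genes had a mean above 0, beside 51.7% of all genes. The 34 rows include the 2 cor1 rows, which are no part of complex III. Their means, 0.04 and 0.33, both lie above 0, so they raise the count for subunits. The medians were 0.13 for subunits, with 0.17 and 0.06 on the arrays, and -0.07 for assembly factors, with 0.04 and -0.47. The gap between the roles was thus mostly on replicate 2. The difference between these groups of genes was not tested, since both come from the same 2 arrays.

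The mitochondrially encoded partners measured here, 3 transcripts of complexes III and IV, had higher values. No array row was found for cox3, atp6, atp8 or atp9, so mitochondrial partners in ATP synthase were not measured. The transcript of cox1, the catalytic core of complex IV, rose, with 1.57 on replicate 1 and 1.61 on replicate 2 (mean 1.59 ± 0.03, limma adjusted p = 0.00745), and its call ended with median centring (adjusted p = 0.318). For cob, which encodes cytochrome b of complex III, the arrays gave 0.72 and 1.19, and for cox2 0.79 and 0.71 (adjusted p = 0.172 and 0.391). Of the 47 nuclear members, 0 reached the lowest of the mitochondrial values on both arrays, and 2, cox8 and qcr7, had a mean at or above the lowest mitochondrial mean of 0.75. The shares of all genes at these cut-offs were not counted. At the lower cut-off of a mean over 1.5-fold higher, the share was 4.43% of all genes, so few of any 47 genes would lie so high. On 2 arrays an exact sign-flip test of nuclear against mitochondrial genes cannot give a two-sided p below 0.5. The gap between them was thus not tested.

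**Figure D3:**
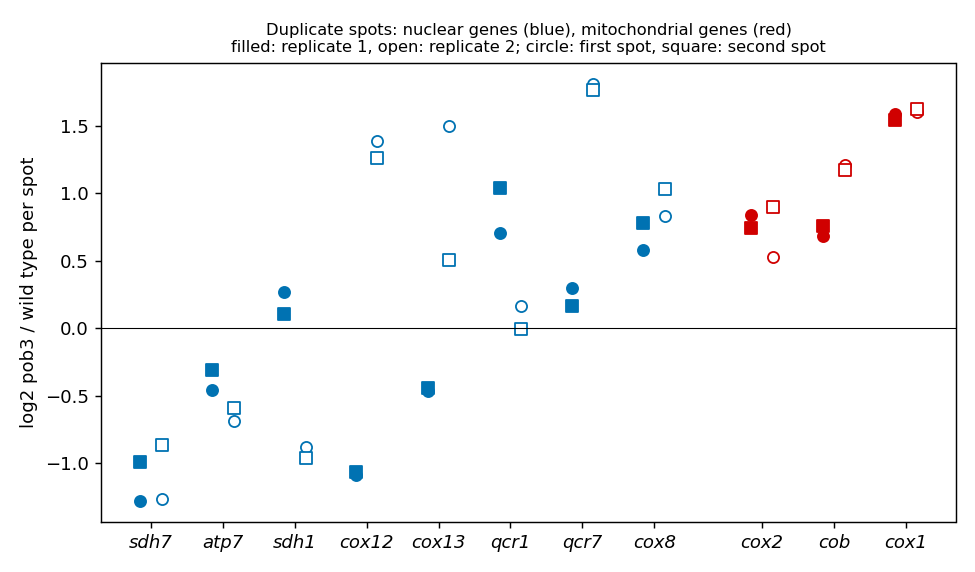
The log2 ratio of pob3 over wild type in each spot (vertical axis) for 8 nuclear members, in blue, and the 3 mitochondrially encoded transcripts, in red. Filled symbols are replicate 1 and open symbols replicate 2, with circles for the first and squares for the second duplicate spot. Spots of sdh7 lie between -1.28 and -0.86 on both arrays, those of cox12 split by array, and those of cox1 lie between 1.55 and 1.63.

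Other genes of respiratory metabolism were described from 6 lists with 93 measured names, of which 0 passed the limma test (0.734% of all genes passed higher and 0.168% lower) and 0 were over 2-fold the same way on both arrays (0.755% and 0.231%). At an unadjusted p under 0.05, 5 lay higher and 6 lower, beside 4.57% and 3.15% of all genes. The list medians ran from -0.09 to 0.10, near the 0.01 of all genes.

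Of the 18 genes for the citrate cycle and pyruvate dehydrogenase, the smallest p-values belonged to parts of the 2-oxoglutarate dehydrogenase complex: kgd1 had -0.59 and -0.82 and kgd2 had -0.67 and -0.51. Both lay below 0 on both arrays, at adjusted p-values of 0.457 and 0.604. Another gene of that complex, dld1, had 0.29 and -0.18. The next smallest p of the list belonged to idp1, which lay higher, with 0.63 and 0.53 (limma adjusted p = 0.614). The median of that list was -0.0003. In haem synthesis, whose product is a cofactor of cytochromes, the median of 8 genes was -0.09. There hem15, for ferrochelatase, had -0.63 and -0.61 and hem14, for the enzyme before it, had -0.62 and -0.51, at adjusted p-values of 0.564 and 0.635.

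Among 30 assembly factor genes that the naming rule leaves out, the median was -0.06, and the extremes were genes of pentatricopeptide repeat proteins, a family that binds mitochondrial RNA. The gene ppr7 had -0.60 and -0.86, and ppr10 had 0.60 and 0.82. Their adjusted p-values were 0.420 and 0.452. The means of the other ppr genes in the list ran from -0.38 (ppr8) to 0.21 (ppr5), so the family had no common direction. Of 15 genes for ubiquinone synthesis and for dehydrogenases that reduce it, coq6 had 0.10 and 1.34 and ppt1 had -0.45 and -0.26, with a list median of 0.02. Duplicate spots differed for both genes. On replicate 1 those of coq6 gave 0.42 and -0.22, and its value on replicate 2 is that of the first spot alone. The ppt1 spots gave -0.82 and -0.08 on replicate 1 and -0.56 and 0.04 on replicate 2.

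In the list of 9 rows for the CCAAT-binding factor and carbon-source regulators the median was 0.10. Its highest value was that of rsv2, a zinc finger transcription factor gene, with 1.23 and 0.43 (adjusted p = 0.373). The gene php4, for a CCAAT-binding factor subunit that represses iron-using genes when iron is scarce, had 0.51 and 0.43 (adjusted p = 0.723). Of 13 carrier and import genes, with a median of 0.07, yhm2 had 0.88 and 0.73 (adjusted p = 0.342) and tom40, for the channel of the outer membrane, had 0.71 and 0.25.

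**Figure D4:**
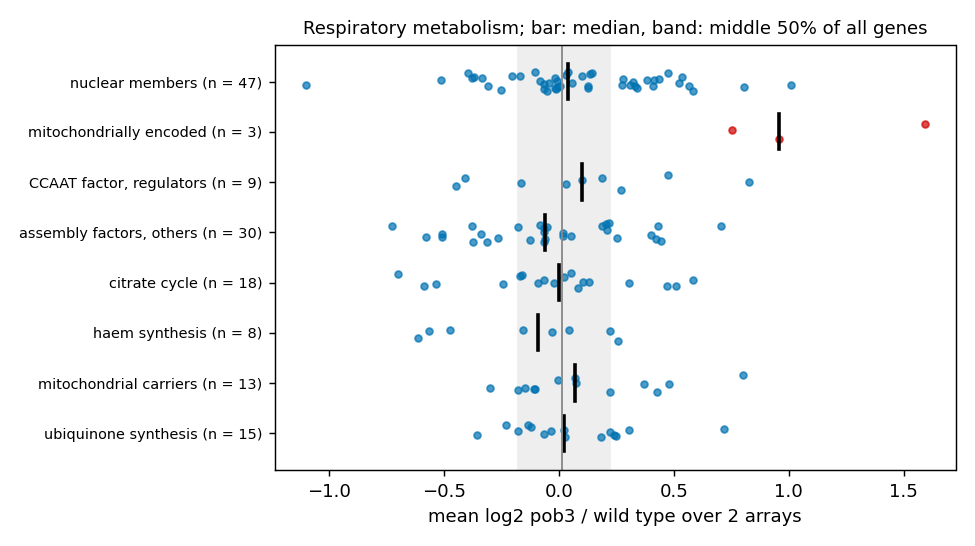
Each point is the mean log2 ratio of pob3 over wild type of 1 gene over 2 arrays (horizontal axis), for the 47 nuclear members, the 3 mitochondrially encoded transcripts in red and the 6 lists. Black bars are medians, the grey line is the median of all genes and the grey band their middle range from -0.18 to 0.22. The medians of the nuclear groups lie within the band, from -0.09 to 0.10, and that of the mitochondrial transcripts at 0.96.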

How the data were processed

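The deposited scanner files give intensities, per the file headers the median spot and background brightness in the mutant and wild-type channels, with the duplicate spots of an array in separate files of 5760 spots (32 blocks). The sources used here name no quantification tool. The deposited table of log2 ratios served as an alternative for replicate 2, where its direction was pob3 over wild type (r = 0.924 over 6355 gene spots, median -0.04). For replicate 1 it holds 768 values (median -0.12), 0 on gene spots, with scale, centring and direction unknown, and was not used.

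Intensities were corrected by normexp (offset 50) and normalised by loess within each file in limma 3.58.1 under R 4.3.3, control spots at weight 0. Spots with a quality flag of 0 and above background in at least 1 channel (over 2 background SDs in Cy3, over 1.5 times background in Cy5) were averaged to 1 value per array. Limma's lmFit and eBayes tested each mean against 0, and p-values were adjusted by Benjamini-Hochberg over 4768 genes. It has 1 residual degree of freedom and rests on the pooled spread (prior degrees of freedom 13.2, prior SD 0.38). Median signals per file were 4219 to 6308 for pob3 and 1978 to 5365 for wild type. The number of arrays limits precision.

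Of 4870 names, 4652 matched 1 locus of the reference table (ASM294v3), used for names only, and 154 names marked missing were left out. Members and lists were chosen with earlier results of these data known. Named are all members of classes of up to 5, the 2 highest and 2 lowest of larger classes, members past a threshold, the 10 with the smallest p and 2 per list. The remaining members, ndi1, tim18, dld1 and idp1 were named after their values were seen. Lists were limited to current symbols, and ctp1, pet1, ups1 and reb1 were left out as products of other pathways, after the data were seen.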

Additional observations from a re-analysis of the deposited data

How the results depend on the processing

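As 0 members passed the threshold, members had no call to lose, so a joint change of direction and call could not be judged for them. With median centring the members whose direction on replicate 1 changed included nde1, cox8, atp2 and cyc1. The count of 0 members past the threshold on the lower side was 1 (sdh7) with the first spots alone, with an intensity trend, with the submitters' values for replicate 2 (which cover 12 members) and at an adjusted p of 0.10. The 1 member over 2-fold lower on both arrays became 0 with median centring, print-tip loess, print position medians subtracted and the second spots alone, and the count of 0 over 2-fold higher became 1 at 1.5-fold. The 17 members above 0 on both arrays were 4 with the submitters' values and 26 to 30 on a single array. The 8 below 0 on both were 13 with print position medians, 2 with the submitters' values and 17 to 21 on a single array. The median of the members, 0.04, was 0.031 without replicate 1 and 0.16 without replicate 2, and -0.03 over the 12 members with the submitters' values. The 43 genes of the whole array past the threshold were 1 with median centring (175 at an unadjusted p under 0.05 in limma), 19 with an offset of 10, 21 with equal spread, 23 with print position medians, 68 with the second spots and 74 with print-tip loess. The pob3 ratio ranged from -1.48 to -1.19, and it missed the threshold with median centring (adjusted p = 0.421), an offset of 10 (0.0816), equal spread (0.0798), print position medians (0.0671) and no background correction (0.0576). The mean of qcr1, 0.47, was 0.28 with median centring, and that of atp7, -0.51, was -0.28 with print-tip loess. Values without the cor1 rows, without atp2 and with 1 row per locus (42 genes past the threshold) were chosen after seeing the data. No paired analysis was possible because each array already holds both RNAs and its ratio is the pair, so that the arrays form 1 group.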
